A study of Mus musculus with 4 samples.

Results

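The angiopoietins and the Tie receptors were followed through the endothelium of the mouse heart. The 4 genes, Tek, Tie1, Angpt1 and Angpt2, were chosen by name as 1 ligand and receptor family. No measured value was used, but earlier results of these data were known. All 4 were among the 27998 genes of the count tables. The study profiled sorted cardiac endothelial cells by single-cell RNA sequencing to follow cells on the way to coronary arteries. Each of the 4 stages had 1 library from pooled C57Bl6J hearts, with 37 animals at E12, 48 at E15, then 21 at P2 and 6 in adults (8 weeks old). Cells were taken as CD31+ and CD45−, which selects endothelial cells against leukocytes, and were frozen and thawed before capture. The labels name no transgene and no treatment. Dead cells were removed from the thawed E12 and E15 cells with a kit and from the P2 and adult cells by a further sort, and the enzymes of the digestion also differed by stage, so stage and preparation cannot be told apart.

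The libraries held 5732 (E12), 6062 (E15), 5884 (P2) and 4242 (adult) cells. Their median depth ran from 1013 unique molecular identifiers (UMIs, 1 per captured transcript) per cell at E15 to 4531.5 at P2. Libraries shared 25 to 60 cell barcodes per pair, where random draws from the barcode list would give 33.0 to 48.4. For a class of cells UMIs were summed and given as counts-per-million (CPM), the part of the gene in all UMIs of the class. The ranges after each value are exact 95% intervals for counting error. Cells of 1 library are not replicates and the spread between animals is in none of these intervals, so no test was made and no p-value is given.

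Tek encodes Tie2, a receptor tyrosine kinase of endothelial cells, and Tie1 its close relative and partner in the membrane, which has no angiopoietin bound with high affinity. Angpt1, secreted mainly by mesenchymal and mural cells, activates Tie2 and stabilizes vessels. Angpt2, made by endothelial cells and stored in their Weibel-Palade bodies, blocks or weakly activates Tie2 depending on the context and accompanies sprouting and lymphatic growth. Mice without Tek or Angpt1 die in midgestation with a poorly trabeculated heart, in which the endocardium fails to attach to the myocardium.

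On GRCm38 (the build called mm10), the GENCODE M21 annotation places Tek (ENSMUSG00000006386) on the plus strand of chromosome 4 from 94739289 to 94874976. Tie1 (ENSMUSG00000033191) lies on the minus strand of the same chromosome, from 118471191 to 118490061. Angpt1 (ENSMUSG00000022309) spans 42424723 to 42676977 on chromosome 15, and Angpt2 (ENSMUSG00000031465) spans 18690263 to 18741562 on chromosome 8, both on the minus strand. RefSeq promoter windows were matched for 2 of the 4 genes. The 250 bases before the start of Tek (RefSeq, GRCm38.p6, chr4:94739039-94739288, plus strand, upstream of every annotated exon of the gene) are shown because Tek was lower in coronary than in endocardial cells from E15 onwards. Capitals mark the core letters of ETS factor motifs, GGAA or, on the other strand, TTCC.

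Tek, 250 bases before the start: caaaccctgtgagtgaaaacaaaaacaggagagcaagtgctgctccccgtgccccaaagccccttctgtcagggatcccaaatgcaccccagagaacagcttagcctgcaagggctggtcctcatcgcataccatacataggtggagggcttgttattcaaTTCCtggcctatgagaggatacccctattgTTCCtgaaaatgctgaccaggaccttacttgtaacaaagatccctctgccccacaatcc

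The window held 2 matches, both TTCC. Of the 32851 windows of the same length in the table, 93.4% held at least 1 match and 76.8% held at least 2, so this number was a usual one.

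Cells were placed in classes by the UMIs of a few marker genes. Endocardial cells had more UMIs of Npr3 and Tmem108 than of Fabp4, Cldn5 and Aplnr. Coronary cells had at least 2 UMIs of the latter genes and more of them than of the former. Artery cells had at least 3 UMIs of Cxcl12, Glul, Alpl and Nebl, and non-endothelial cells had no UMI of Pecam1, Cdh5 and Egfl7. Endocardial cells numbered 1716, 2115, 1082 and 75 in stage order from E12 to the adult, and coronary cells 113, 1254, 4596 and 4077. The artery gate held 332, 69, 711 and 1875 cells and the non-endothelial gate 2995, 1867, 13 and 133.

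The gates are ranges of a score and not cell types. At E12, 63.9% of the endocardial cells passed by 1 UMI and 59.3% of the coronary cells sat at the minimum, against 17.0% and 1.78% at P2. The artery label did not hold before birth. Of the 332 artery-gated cells at E12, 257 were also non-endothelial, none was coronary, and their mesenchyme markers (8 genes such as Col1a1 and Pdgfra) summed to 3577 CPM against 243 CPM for the 6 endothelial markers. At E15, 41 of 69 were non-endothelial and 19 coronary, so artery values are described from P2 onwards. The endocardial gate also overlapped the non-endothelial one, by 596 of 1716 cells at E12 and 545 of 2115 at E15, and held mesenchyme markers at 1441 and 1280 CPM beside endothelial markers at 1401 and 2122 CPM. Their part in the endocardial values was not tested. At P2 and in the adult the artery gate held endothelial markers at 5232 and 6167 CPM and artery markers at 3291 and 4194 CPM. The artery list includes the genes of the gate, so its sum is partly set by the gate. It stood at 2647 and 2754 CPM at E12 and E15 as well. The adult gate held coronary markers (5 genes such as Fabp4 and Car4) at 25113 CPM, against 26812 CPM in the other coronary cells. It need not hold arteries alone.

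Tek was higher in endocardial than in coronary cells at each of the 4 stages. Endocardial Tek was 160 CPM (145 to 177) at E12, 189 (172 to 207) at E15, then 327 (311 to 343) at P2 and 393 (312 to 488) in adults. Coronary Tek was 107 (69.9 to 157), 85.7 (72.3 to 101), 152 (147 to 157) and 202 (192 to 213) CPM at these stages. From E15 onwards the intervals of both classes did not overlap. The coronary to endocardial ratio was 0.667 (0.43 to 0.992) at E12, 0.453 (0.373 to 0.547) at E15, then 0.464 (0.438 to 0.492) at P2 and 0.515 (0.412 to 0.651) in adults. At P2, 10.4% of the 12548 genes with at least 20 UMIs over both classes were lower by 2-fold or more, and at E15 12.4% of 9639 were. With cells thinned to 500 UMIs the E12 ratio turned to 1.04 (0.49 to 1.98) on 10 coronary UMIs.

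Tie1 was also higher in endocardial cells up to P2, and in the adult it was higher in coronary cells. Endocardial Tie1 was 165 CPM (149 to 182) at E12, 232 (213 to 252) at E15, then 324 (309 to 340) at P2 and 187 (133 to 255) in adults. Coronary Tie1 was 111 (73.2 to 162), 168 (149 to 189), 262 (256 to 269) and 376 (362 to 390) CPM, each value above the one before it. At E12 empty droplets held Tie1 at 183 CPM (150 to 219), so the endocardial level there was not above theirs either. The coronary to endocardial ratio was 0.674 (0.439 to 0.995), 0.723 (0.624 to 0.835) and 0.808 (0.766 to 0.853) up to P2, and 2.01 (1.47 to 2.83) in the adult. Among all genes tested in the adult, 22.6% were higher in coronary cells by 2-fold or more. The adult endocardial value rests on 39 UMIs in 75 cells, and thinning moved the adult ratio to 1.38 (0.77 to 2.78). Taking as endocardial all 95 adult cells with at least 3 UMIs of Npr3 and Tmem108 gave 1.94 (1.49 to 2.59). The adult endocardial cells carried mesenchyme markers at 2864 CPM and vein markers (Vwf, Prss23 and Nr2f2) at 867 CPM, against 1724 and 296 CPM at P2, and the part of these in the receptor values was not tested.

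**Figure D1:**
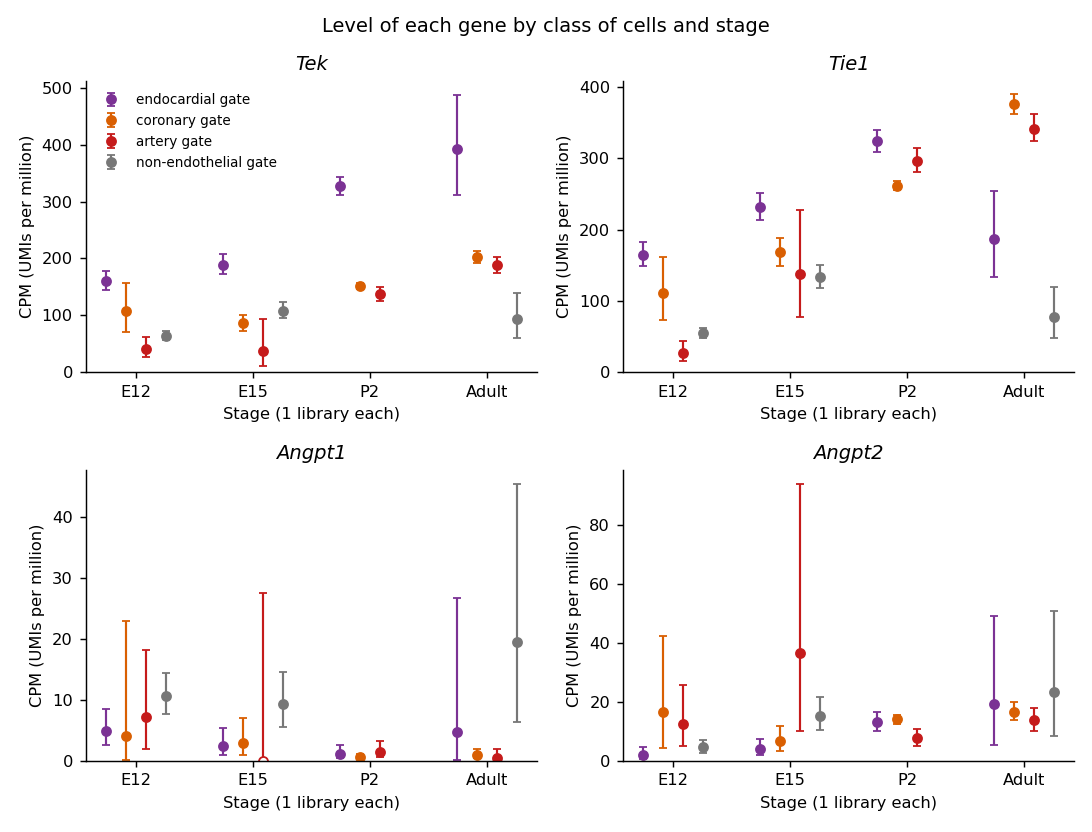
CPM of each gene (y axis) at each stage (x axis) in cells of the endocardial (purple), coronary (orange), artery (red) and non-endothelial (grey) gates; points are 1 library each, bars are exact 95% intervals for counting error, the open point has 0 UMIs with its upper limit from 3 counts, and classes under 50 cells are left out. Endocardial Tek lies above coronary Tek at each stage, adult Tie1 is at 376 CPM in coronary against 187 CPM in endocardial cells, and the points of both ligands lie below 40 CPM.

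Both receptors were higher at P2 than at E15 in endocardial and coronary cells. From E15 to P2 Tek was 1.77-fold higher in coronary cells (1.5 to 2.1) and 1.73-fold higher in endocardial cells (1.56 to 1.92). Tie1 was 1.56-fold (1.39 to 1.77) and 1.4-fold (1.27 to 1.54) higher. The median gene was itself 1.27-fold higher in coronary and 1.18-fold higher in endocardial cells over this step. The 6 endothelial markers summed to 2769 CPM at E15 and 5165 CPM at P2 in coronary cells. In endocardial cells they summed to 2122 and 3863 CPM. Whether the receptors rose apart from these markers was not tested. Leaving mitochondrial, ribosomal protein and haemoglobin genes out of the total gave 1.48 and 1.49 for Tek, and 1.31 and 1.21 for Tie1.

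From P2 to the adult the receptors went apart in the endocardium. Adult endocardial Tie1, at 187 CPM (133 to 255), did not differ detectably from its E15 level of 232 CPM (213 to 252). Coronary Tek was 1.33-fold (1.25 to 1.42) and coronary Tie1 1.43-fold (1.37 to 1.5) higher in the adult. Endocardial Tek had a ratio of 1.2 (0.952 to 1.5), which was not detectably different from 1 at this depth. Endocardial Tie1 had a ratio of 0.576 (0.408 to 0.79). Thinned to 500 UMIs per cell this Tie1 ratio was 0.801 (0.394 to 1.47), an interval that holds 1, on 11 adult UMIs. Between E12 and E15 endocardial Tek was 1.18-fold (1.03 to 1.35) and endocardial Tie1 1.41-fold (1.24 to 1.6) higher. Erythroid markers in these cells stood at 1898 and 86.3 CPM, and the 6 endothelial markers at 1401 and 2122 CPM. The part of either list was not tested. Coronary Tek had a ratio of 0.801 (0.525 to 1.27) over the same step, with 26 UMIs at E12, and coronary Tie1 one of 1.51 (1.02 to 2.33).

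**Figure D2:**
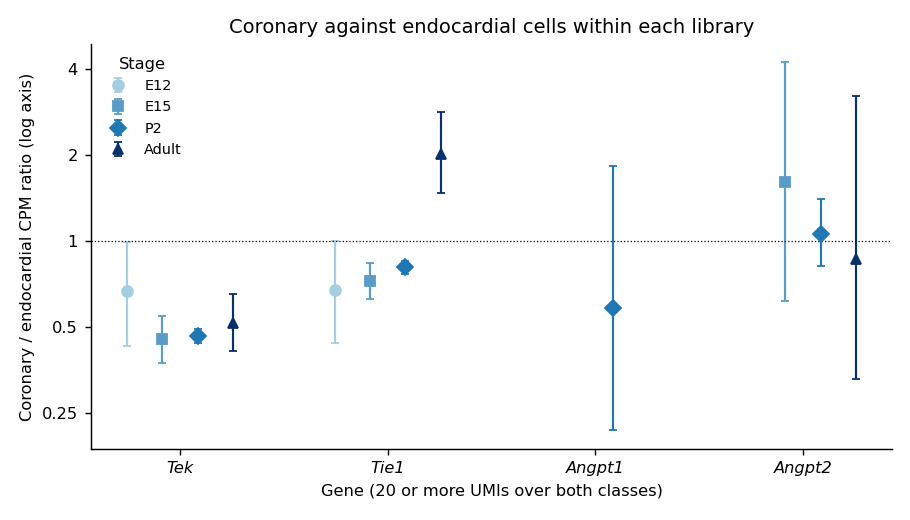
Coronary to endocardial CPM ratio (y axis, log scale) of each gene with at least 20 UMIs over both classes (x axis), by stage (shade and symbol), with exact 95% intervals for counting error; the dotted line marks equal levels. Tek stays between 0.453 and 0.667, and Tie1 passes from 0.808 at P2 to 2.01 in the adult.

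The balance of both receptors was read as the share of Tek among Tek and Tie1 UMIs. Since capture can differ between genes, this share was compared between groups of cells and not read as a ratio of transcripts. In endocardial cells it was 49.3% (45.8% to 52.8%) at E12, 44.9% (41.8% to 48.0%) at E15, then 50.2% (48.5% to 51.9%) at P2 and 67.8% (58.7% to 76.0%) in adults. In coronary cells it was 49.1% (35.1% to 63.2%), 33.8% (29.3% to 38.5%), 36.6% (35.7% to 37.6%) and 35.0% (33.6% to 36.5%). From E15 onwards the coronary share lay below the endocardial one with no overlap of the intervals. With each cell thinned to 500 UMIs the adult endocardial share was 56.0% (34.9% to 75.6%), on 14 Tek and 11 Tie1 UMIs. That at P2 was 45.5% (40.2% to 50.7%). The thinned adult interval overlaps the one at P2 and also the adult coronary interval given above.

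After birth the share differed between some of the vessel gates. At P2 it was 31.5% (29.3% to 33.7%) in artery cells and 37.9% (36.8% to 39.0%) in the other coronary cells. Lymphatic-gated cells, with an endothelial UMI and at least 3 UMIs of Prox1, Ccl21a, Mmrn1 and Reln, were at 30.7% (26.8% to 34.9%). In the adult it was 53.7% (46.0% to 61.3%) in vein-gated cells (at least 3 UMIs of Vwf, Prss23 and Nr2f2) and 28.6% (23.4% to 34.3%) in tip-gated cells (at least 1 UMI of Apln, Kcne3 and Esm1, genes of sprouting tip cells). The tip gate pools Apln and Esm1, whose tip cells the study reported as separate at E12. It is also wide, with 1172 of the 4596 coronary cells at P2. Adult cells of the artery gate, which took in 1859 of the 4077 coronary cells, were at 35.5% (33.4% to 37.6%). The other coronary cells were at 34.6% (32.6% to 36.7%), so this wide gate did not separate adult cells by the share. At P2 vein-gated cells were at 40.1% (37.5% to 42.8%) and tip-gated cells at 35.1% (33.3% to 37.0%). Both intervals overlap that of the other coronary cells at P2.

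**Figure D3:**
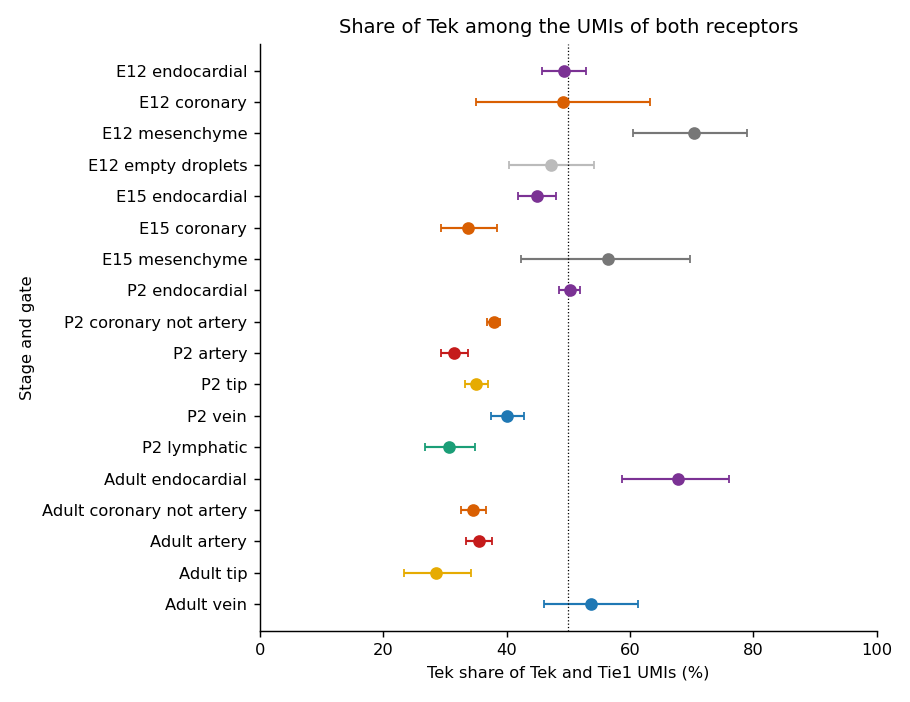
Share of Tek among Tek and Tie1 UMIs (x axis, percent) by stage and gate (y axis), with exact 95% binomial intervals; the dotted line marks equal UMIs of both genes. Endocardial points lie to the right of the coronary points from E15 onwards, and adult vein-gated cells, at 53.7%, lie to the right of adult artery cells at 35.5%.

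Behind the P2 artery share, Tek was lower and Tie1 higher than in the other coronary cells. At P2 Tek was 137 CPM (125 to 149) in artery cells and 156 (151 to 162) in the other coronary cells, a ratio of 0.875 (0.797 to 0.959). Tie1 was 297 CPM (281 to 315) against 256 (249 to 263), a ratio of 1.16 (1.09 to 1.24). In the adult both were lower in artery cells, Tek with a ratio of 0.879 (0.792 to 0.975) and Tie1 with 0.846 (0.784 to 0.913). The P2 ratios are small against the choice of cells. That of Tek became 1.04 when cells with any UMI of Npr3 or Tmem108 were left out of the other coronary cells alone. All 711 artery cells were kept there. That of Tie1 became 0.973 after thinning.

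At P2 and in the adult tip-gated coronary cells held less of both receptors than the other coronary cells. At P2 the ratio was 0.715 (0.662 to 0.771) for Tek and 0.78 (0.737 to 0.826) for Tie1, and in the adult 0.6 (0.472 to 0.753) and 0.822 (0.708 to 0.951). At E15 Tek did not differ (1.01, 0.65 to 1.52) beyond its counting error, and Tie1 had a ratio of 0.707 (0.501 to 0.979). In vein-gated cells of the adult Tek was 309 CPM against 198 CPM in the other coronary cells, a ratio of 1.56 (1.25 to 1.93), while Tie1 was 266 against 380 CPM, a ratio of 0.699 (0.553 to 0.872). At P2 vein-gated Tek had a ratio of 1.32 (1.2 to 1.45), or 1.59 (1.43 to 1.76) once lymphatic-gated cells were left out. Thinned to 500 UMIs it turned to 0.841 (0.563 to 1.22), on 31 vein UMIs. Vein-gated cells had a median of 5278 UMIs at P2 and 2218 in the adult, against 4561.5 and 1485 in all coronary cells.

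In some classes cells in division held less receptor. Endocardial cells with at least 3 UMIs of Top2a, Mki67, Cenpf and Ube2c had 0.643 (0.457 to 0.884) of the Tek CPM of the other endocardial cells at E12 and 0.613 (0.389 to 0.924) at E15. For Tie1 the ratios were 0.592 (0.417 to 0.818) and 0.647 (0.435 to 0.93). Among P2 coronary cells they were 0.74 (0.677 to 0.809) for Tek and 0.653 (0.608 to 0.701) for Tie1. Coronary cells before birth did not show this for Tek, with ratios of 1.08 (0.383 to 2.68) at E12 and 1.01 (0.604 to 1.61) at E15, and P2 endocardial cells had 0.785 (0.584 to 1.03) on 24 dividing cells. Coronary Tie1 had 0.509 (0.128 to 1.49) at E12 and 0.731 (0.486 to 1.06) at E15, and P2 endocardial Tie1 0.743 (0.548 to 0.988). Adult dividing-gated coronary cells, of which there were 29, had a Tek ratio of 0.32 (0.138 to 0.633) and a Tie1 ratio of 0.871 (0.621 to 1.19). Dividing-gated cells were also deeper than the others. Their median was 2135 against 1222 UMIs in E12 endocardial, 1819 against 981.5 in E15 endocardial and 7354 against 4299 in P2 coronary cells. The part of depth in these ratios was not tested.

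In lymphatic-gated cells Tek was lower than in the other endothelial cells up to P2, while the intervals of the Tie1 ratio held 1. At E15 no Tek UMI was found in 52 such cells, which allows up to 39.3 CPM, against 146 CPM in the other endothelial cells, while Tie1 was at 183 CPM (ratio 0.866, 0.472 to 1.46). In this small gate 38.7% of 10142 genes were lower by 2-fold or more. At E12 the 21 cells held 1 Tek UMI, and Tek had a ratio of 0.139 (0.00352 to 0.779) and Tie1 one of 0.796 (0.291 to 1.74). At P2 207 cells had Tek at 122 CPM, a ratio of 0.646 (0.549 to 0.757), and Tie1 at 275 CPM, a ratio of 1.0 (0.899 to 1.11). Thinned to 500 UMIs, the P2 Tek ratio was 0.295 (0.108 to 0.646) on 6 lymphatic UMIs. In the 17 adult cells no Tek difference was detected, with 219 CPM and a ratio of 1.04 (0.498 to 1.92). Without the cell with the most Tek UMIs it was 0.834 (0.335 to 1.72). Their Tie1 was at 197 against 372 CPM, a ratio of 0.529 (0.241 to 1.0).

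Single cells of P2, the deepest library, often held both receptors. Of the endocardial cells 57.0% had UMIs of Tek and Tie1 and 6.93% of neither, and of the coronary cells 35.9% had both and 17.8% neither. Among coronary cells with a Tek UMI 74.3% had a Tie1 UMI, against 65.5% of those without, but the former were deeper, with a median of 5084 against 4145 UMIs. Thinned to 500 UMIs, a Tek UMI was found in 7.77%, 9.53%, 13.5% and 14.7% of endocardial cells in stage order from E12 to the adult, and in 7.08%, 4.46%, 7.57% and 10.4% of coronary cells. Unthinned, these shares were 19.6%, 18.7%, 74.8% and 62.7%, and 18.6%, 10.4%, 48.3% and 28.0%.

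These shares hold some background. The E12 table also held 155236 empty droplets (1 to 50 UMIs), in which Tek was at 163 CPM (133 to 198) and Tie1 at 183 CPM (150 to 219), close to the endocardial cells of that library. Erythroid-gated cells at E12, which should lack both genes, had a Tek UMI in 11.8% (4.44% to 23.9%) of 51 cells at a median of 1696 UMIs, against 19.6% of endocardial cells at 1276.5 UMIs. Tek in the mesenchyme-gated cells of E12 was 36.0 CPM (28.1 to 45.4) and Tie1 15.2 CPM (10.3 to 21.7), below the empty droplets. The Tek share of both receptors was 70.3% (60.4% to 79.0%) in these cells and 47.2% (40.4% to 54.1%) in the droplets.

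The non-endothelial gate was not free of endothelial RNA. Only 38.8% of its cells at E12 and 32.2% at E15 had a clear mesenchyme profile, and 58.0% and 66.1% could not be assigned to another cell type. Tek and Tie1 in the unassigned cells at E15 were 171 and 224 CPM, against 149 and 224 CPM in endothelial cells outside the classes, with ratios of 1.14 (0.942 to 1.39) and 1.0 (0.848 to 1.18). The gate as a whole had a Tek ratio to coronary cells of 0.591 (0.394 to 0.922) at E12, 1.26 (1.02 to 1.57) at E15 and 0.462 (0.295 to 0.69) in the adult. Among cells of at least 1000 UMIs the E15 ratio was 0.871. For Tie1 these ratios were 0.489 (0.327 to 0.758), 0.795 (0.671 to 0.943) and 0.207 (0.126 to 0.321). Of the non-endothelial cells 7 of 2995 at E12, 181 of 1867 at E15 and 101 of 133 in the adult were also coronary-gated. They count on both sides of these ratios, while the intervals treat the groups as separate. At P2 the gate held 13 cells and is not compared.

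Angpt1, the activating ligand, was scarce in these sorted cells, with 70 UMIs at E12, 32 at E15, then 23 at P2 and 12 in adults over whole libraries. Endocardial cells held 4.85 (2.51 to 8.47), 2.45 (0.9 to 5.34), 1.16 (0.425 to 2.52) and 4.79 (0.121 to 26.7) CPM, the last from 1 UMI. Coronary cells held 4.12 (0.104 to 22.9), 2.98 (0.966 to 6.95), 0.677 (0.387 to 1.1) and 0.974 (0.391 to 2.01) CPM, the first from 1 UMI. Coronary Angpt1 at P2 was 0.227 (0.0796 to 0.794) of that at E15, on 16 and 5 UMIs, where 5.44% of 12310 genes were lower by 2-fold or more. This difference rests on few cells. Under the limits of the study 2 of the 5 E15 UMIs were left and the ratio was 0.525 (0.124 to 4.71), and with the doublet score added no Angpt1 UMI was left in coronary or endocardial cells at E15.

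Mesenchyme-gated cells held more Angpt1 than the endothelium. These cells had no UMI of the 3 endothelial genes and at least 5 UMIs of the mesenchyme markers, more than of any other cell type list. They had 14.7 CPM (9.84 to 21.1) at E12 and 16.9 CPM (9.48 to 27.9) at E15, from 29 and 15 UMIs. The ratio to endocardial cells was 3.03 (1.5 to 6.52) at E12, where 7.54% of 10141 genes were higher by 2-fold or more, and 6.9 (2.53 to 21.7) at E15, where 8.79% of 9399 were. Endocardial-gated cells were not left out of the mesenchyme gate, so some cells can lie on both sides of these ratios. The intervals treat the groups as separate. Stricter class thresholds moved the E12 ratio to 6.88 (1.74 to 59.5). The 36 adult cells of this kind held 4 UMIs, 33.3 CPM (9.07 to 85.3). Empty droplets at E12 had 6.46 CPM (1.76 to 16.5), an interval that overlaps both the endocardial and the mesenchyme value of that library.

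Angpt2, the context-dependent ligand, was at a low level in both main classes, and in endocardial cells it was higher at P2 than at E15. Endocardial cells held 2.02 (0.656 to 4.72), 4.09 (1.96 to 7.52), 13.1 (10.2 to 16.6) and 19.2 (5.22 to 49.1) CPM in stage order from E12 to the adult. Coronary cells held 16.5 (4.49 to 42.2), 6.55 (3.27 to 11.7), 14.0 (12.5 to 15.5) and 16.6 (13.7 to 19.8) CPM, the first from 4 UMIs in 2 cells. The adult endocardial value also came from 4 UMIs in 2 cells, and it was 4.88 CPM without the cell that held 3 of them. From E15 to P2 the ratio was 3.21 (1.64 to 6.99) in endocardial cells, where 12.9% of 10955 genes were higher by 2-fold or more, and 2.13 (1.18 to 4.31) in coronary cells, where 19.4% were. The classes did not differ detectably at P2, with a ratio of 1.06 (0.817 to 1.4), or in the adult, with 0.864 (0.329 to 3.22).

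Lymphatic-gated cells held the most Angpt2 of the gates described at E12 and P2. They had 111 CPM (36.2 to 260) at E12, 39.3 (8.1 to 115) at E15, then 93.0 (77.2 to 111) at P2 and 65.6 (13.5 to 192) in adults, from 5, 3, 122 and 3 UMIs. At P2 the level was 9.22-fold (7.4 to 11.4) that of the other endothelial cells, where 8.03% of 12588 genes were higher by 2-fold or more. These 207 cells, of 5884, carried 29.9% of the Angpt2 UMIs of the library. The cell with the most held 13, and the ratio was 8.28 without it. Thinned to 500 UMIs it was 4.97, on 6 lymphatic UMIs, with a lower bound of 1.7.

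Because 197 of those 207 cells also passed the coronary gate, they weigh on the coronary values. Without lymphatic-gated cells coronary Angpt2 at P2 was 9.38 CPM in place of 14.0, and its ratio to endocardial cells was 0.71 (0.538 to 0.947). The step from E15 to P2 was then 1.39 (0.762 to 2.83) in coronary cells, and that from P2 to the adult 1.73 (1.37 to 2.18) in place of 1.19 (0.954 to 1.47). The endocardial step from E15 to P2 was 3.23 (1.65 to 7.04) without them.

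Within coronary cells Angpt2 was lower in artery cells at P2. Artery cells held 7.61 CPM (5.13 to 10.9) and the other coronary cells 15.2 (13.6 to 17.0), a ratio of 0.5 (0.331 to 0.729), where 5.32% of 12243 genes were lower by 2-fold or more. Among the artery cells 1 held 11 of the 30 UMIs, and the ratio was 0.332 (0.197 to 0.528) without the cell with the most UMIs in each class. Without lymphatic-gated cells the values were 3.89 and 10.6 CPM. In the adult the ratio was 0.704 (0.48 to 1.03). Vein-gated cells of P2 stood at 46.8 CPM (39.1 to 55.6), 4.89-fold (3.89 to 6.12) the other coronary cells, where 7.78% of 12227 genes were higher by 2-fold or more, but 153 of these 453 cells were also lymphatic-gated. The other 300 held 10.7 CPM against 9.27 CPM, a ratio of 1.15 (0.678 to 1.85).

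In tip-gated cells Angpt2 was high in the adult. They held 41.4 CPM (27.0 to 60.7) against 14.2 CPM (11.4 to 17.4) in the other coronary cells, a ratio of 2.92 (1.81 to 4.55), where 3.46% of 10619 genes were higher by 2-fold or more. It was 2.61 without the cell with the most UMIs, 3.0 (1.86 to 4.69) without lymphatic-gated cells, and 1.68 (0.766 to 3.32) when cells in more than 1 class were left out. At P2 the ratio was 0.691 (0.53 to 0.894), or 1.2 (0.896 to 1.6) without lymphatic-gated cells. At E15 it was 2.19 (0.469 to 8.6) on 4 tip UMIs. The adult tip-gated cells held more Angpt2 and less Tek than the other coronary cells, and 114 of the 263 were also artery-gated. As said above, this gate pools Apln and Esm1 and took in deeper cells.

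**Figure D4:**
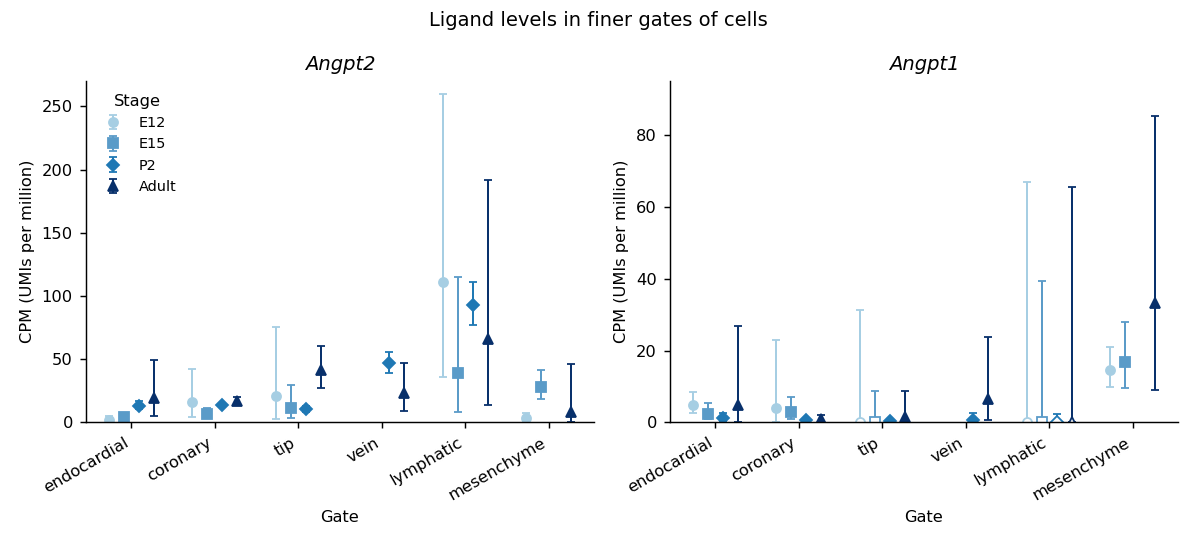
CPM (y axis) of Angpt2 (left) and Angpt1 (right) by gate (x axis) and stage (shade and symbol), with exact 95% intervals for counting error; open symbols have 0 UMIs with the upper limit from 3 counts, and groups under 15 cells are left out. Angpt2 reaches 93.0 CPM in P2 lymphatic-gated cells and 41.4 CPM in adult tip-gated cells, and Angpt1 14.7 and 16.9 CPM in mesenchyme-gated cells at E12 and E15.

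Angpt2 was also found outside the endothelium. Mesenchyme-gated cells held 3.55 CPM (1.43 to 7.31) at E12 and 28.2 CPM (18.3 to 41.7) at E15, the latter 6.9-fold (3.2 to 16.1) the endocardial level. Here too some cells can lie in both gates. In the adult the 24 cells with a mural profile (Rgs5, Pdgfrb and other genes of pericytes and smooth muscle) held 4 UMIs in 3 cells, 74.4 CPM (20.3 to 190). Empty droplets at E12 stood at 8.08 CPM (2.62 to 18.8), above the endocardial value of that library.

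The 24 genes of a list of Tie signalling were read beside the members. At P2, 22 of the 24 had enough UMIs to compare coronary with endocardial cells, and 1 was higher and 3 were lower by 2-fold or more, where 21.6% of all genes were in either direction. The median ratio of the list was 0.844 and that of all genes 0.943. Pik3cb, a catalytic subunit of phosphoinositide 3-kinase, was the higher one (5.83, 2.91 to 13.7). Dok2, a docking protein of Tie2, was the lowest (0.0746, 0.0395 to 0.134), followed by Svep1, a matrix protein that binds Tie1, and Itgav, an integrin subunit. In the adult 6 of 19 were higher and 1 was lower, where 36.5% of all genes were in either direction. Of those 6, Nck1, an adaptor, rested on 25 endocardial UMIs (2.19, 1.48 to 3.4) and each of the other 5 on 0 to 4.

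The phosphatase Ptprb (VE-PTP), which dephosphorylates Tie2, was higher after birth than before it in both classes. Coronary Ptprb was 78.2 CPM (47.1 to 122) at E12, 54.8 (44.1 to 67.2) at E15, then 136 (132 to 141) at P2 and 462 (446 to 478) in adults. Endocardial Ptprb was 39.6 (32.2 to 48.3), 40.1 (32.5 to 48.8), 117 (107 to 126) and 249 (186 to 327) CPM. In coronary cells the step from E15 to P2 was 2.49-fold (2.02 to 3.1) and that from P2 to the adult 3.39-fold (3.23 to 3.56), where 11.4% of 12719 genes were higher by 2-fold or more. Coronary Tek was 1.33-fold higher over the last step. Ptprb was also 1.85-fold (1.71 to 2.0) higher in artery than in other coronary cells at P2, where Tek was not.

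Over that step 3 of 21 tested list genes were higher in coronary cells, namely Ptprb, Dok2 and Tnip2, and 2 were lower by 2-fold or more, where 24.8% of all genes were in either direction. Mmp14, a membrane protease that can shed Tie2, went from 148 CPM at P2 to 16.8 CPM in the adult, a ratio of 0.114 (0.0942 to 0.137), and in endocardial cells from 242 to 33.5 CPM. Shc1, an adaptor, had a ratio of 0.473 (0.416 to 0.536). Foxo1, the transcription factor that Tie2 signalling keeps out of the nucleus and that drives Angpt2, had 99.3 CPM in endocardial and 46.4 CPM in coronary cells at E15, a ratio of 0.467 (0.357 to 0.606). At P2 it had a ratio of 0.571 (0.513 to 0.635), and in the adult one of 0.848 (0.455 to 1.79). The third angiopoietin, Angpt4, had no UMI in endocardial cells at any stage and 4 in coronary cells, all of them adult.

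**Figure D5:**
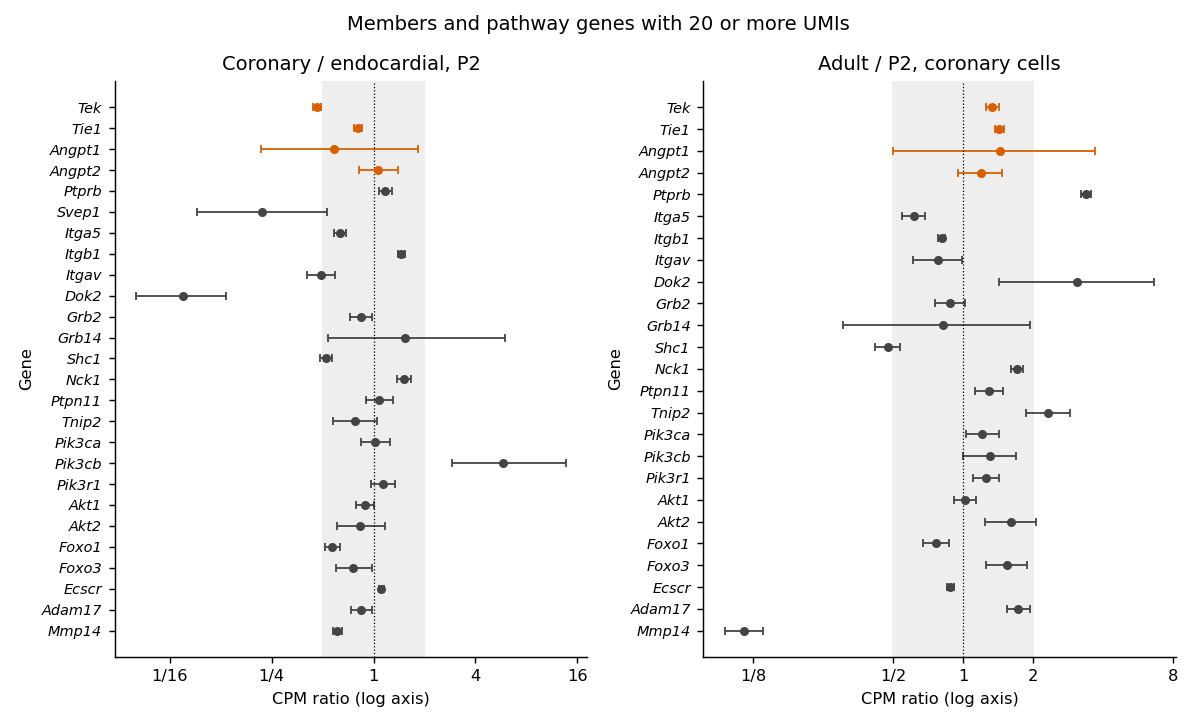
CPM ratio (x axis, log scale) of the members (orange) and the list genes of Tie signalling (dark) with at least 20 UMIs (y axis), for coronary against endocardial cells at P2 (left) and for adult against P2 coronary cells (right), with exact 95% intervals for counting error; the grey band marks differences under 2-fold. Tek lies at 0.464 and Dok2 at 0.0746 on the left, and Ptprb lies at 3.39 and Mmp14 at 0.114 on the right.

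The angiopoietin-like proteins share the fold of the angiopoietins but do not act through Tie2. Angptl4, an inhibitor of lipoprotein lipase, had 20.6, 32.1, 203 and 45.8 CPM in coronary cells from E12 to the adult and 4.45, 8.58, 28.8 and 14.4 CPM in endocardial cells. Its coronary to endocardial ratio was 7.06 (6.0 to 8.37) at P2. Angptl1 and Angptl2 had the opposite order, with P2 ratios of 0.11 (0.0847 to 0.142) and 0.413 (0.35 to 0.488). Angptl6 and Angptl7 stayed at or below 5.02 CPM in both classes.

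The genes whose log2 levels ran most like each member were sought over 15 points, each a class in a library with at least 50 cells, among 10481 genes. Points of 1 library share its depth and its background, so these correlations are a description only. Tek ran closest to Emcn (r = 0.971), which encodes endomucin, and then to Mmrn2 (0.936) and Aplp2 (0.934). Tie1 ran closest to Cd93 (0.951), an endothelial surface receptor, then to Ccdc12 (0.947) and Sh3glb2 (0.942), and its correlation with Tek was 0.732. For Angpt1 the closest were Plce1 (0.916), Ank3 (0.882) and Isy1 (0.877), and for Angpt2 Rmnd5b (0.87), Slc25a14 (0.858) and Pknox1 (0.825), both on ligand levels of few UMIs.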

How the data were processed

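The authors digested hearts, sorted CD31+ and CD45− cells, captured them with a 10x Genomics 3′ kit and made the deposited matrices, which hold raw UMI counts per gene and barcode, with Cell Ranger 2.2 on mm10. The E15, P2 and adult tables held called cells. The E12 table held 737280 barcodes, of which the 5732 with at least 452 UMIs were kept and 155236 with 1 to 50 UMIs were read as empty droplets. The libraries held 7079759 to 29645059 UMIs in cells.

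UMIs were summed per class and divided by the total UMIs of the class. Intervals are exact at 95% (Poisson for levels, binomial for shares, conditional binomial for ratios) and cover counting error only. A count of 0 has an upper limit of 3 counts. Genes with at least 20 UMIs over both classes were compared, and a difference of 2-fold or more was counted. With 1 library per stage no test was possible. No doublets were removed from the values given. A Scrublet score over 0.15, which marked 2.45% to 9.82% of cells, and the limits of the study on UMIs, genes and mitochondrial share served as alternatives. The ratio and its interval were checked on simulated Poisson counts. These hold counting error only and no spread between cells or animals, so they cannot show how the intervals fare with such spread. Likeness was Pearson's r of log2(CPM + 10) among genes of at least 200 UMIs. The text names the 4 members, genes of the 24-gene pathway list and angiopoietin-like genes, and the 3 genes most like each member. Members, lists and gates were chosen with earlier results of these data known. Python 3.11.15, NumPy 2.4.6, SciPy 1.17.1 and pandas 2.3.3 were used.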

Additional observations from a re-analysis of the deposited data

Results flagged for a closer look

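Several ratios lay on different sides of 1 at different stages, and with 1 library per stage none of these differences was tested. Tek in non-endothelial against coronary cells, groups that share cells, had a ratio of 1.26 at E15, and 0.591 at E12 and 0.462 in the adult. Tie1 in coronary against endocardial cells had a ratio of 2.01 in the adult, and 0.674, 0.723 and 0.808 at E12, E15 and P2. In artery against other coronary cells Tie1 had 1.16 at P2 and 0.846 in the adult, and in vein-gated against other coronary cells 1.11 at P2 and 0.699 in the adult. Endocardial Tie1 had a ratio of 1.41 from E12 to E15, 1.4 from E15 to P2 and 0.576 from P2 to the adult. Angpt2 in tip-gated against other coronary cells had 2.92 in the adult and 0.691 at P2.

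The empty droplets of the E12 table, which enter no comparison of classes, held all 4 genes above the limit that a count of 0 allows. Tek was at 163 CPM, Tie1 at 183 CPM, Angpt1 at 6.46 CPM and Angpt2 at 8.08 CPM.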

How the results depend on the processing

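Each of 57 ratios and Tek shares was recomputed under up to 11 alternatives, 2 of them chosen after seeing the data (another endocardial gate, and leaving out lymphatic-gated cells). Of 522 recomputed ratios of the classes and stages 480 stayed within the counting interval of the value given, 38 moved out of it and 4 crossed 1 where that interval did not hold 1. Of 278 recomputed ratios of finer gates 263 stayed, 13 moved and 2 crossed 1 in this way. Of 78 recomputed Tek shares 73 stayed and 5 moved. Of 652 recomputed CPM levels of the classes 546 stayed and 106 moved, among them levels with genes left out of the total. An alternative that left a class with no UMI of the gene, or with too few cells, gave no ratio and is not counted. The cause of these moves was not tested. For each ratio that crossed 1 in this way, the recomputed interval held 1. Thinning was a single random draw per cell. No paired analysis was possible because each stage had 1 library, all numbered replicate 1.

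With cells thinned to 500 UMIs, Tek in coronary against endocardial cells was 1.04 at E12 (reversed) and 0.525 at P2. Tek in artery against other coronary cells was 0.643 at P2 and 0.771 in the adult, in adult non-endothelial against coronary cells 0.739, from E12 to E15 in coronary cells 0.514, and from E15 to P2 in endocardial cells 1.44. Tek in vein-gated against other P2 coronary cells was 0.841 (reversed). Tie1 in coronary against endocardial cells was 0.386 at E12 and 1.38 in the adult, in non-endothelial against coronary cells 0.954 at E12 and 0.407 in the adult, and in artery against other coronary cells 0.973 at P2 (reversed). Coronary Tie1 from E12 to E15 was 2.66, and endocardial Tie1 from P2 to the adult 0.801. Angpt2 was 0.0764 in non-endothelial against coronary cells at E12, 0.683 in coronary against endocardial and 0.197 in artery against other coronary cells at P2, and 1.48 from P2 to the adult in coronary cells. The endocardial Tek share was 45.5% at P2 and 56.0% in the adult.

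With at least 1000 UMIs per cell, Tek in non-endothelial against coronary cells was 0.871 at E15 (reversed), Tie1 there 0.549 at E15 and 0.116 in the adult, endocardial Tek and Tie1 from E15 to P2 2.0 and 1.59, and coronary Tie1 from P2 to the adult 1.36. The mean of per-cell CPM gave 0.7 for Tek and 0.393 for Tie1 in adult non-endothelial against coronary cells. Without mitochondrial, ribosomal protein and haemoglobin genes, the step from E15 to P2 was 1.48 (coronary) and 1.49 (endocardial) for Tek, and 1.31 and 1.21 for Tie1. Without cells in more than 1 class, Tie1 in artery against other coronary cells was 0.122 at E15, coronary Tie1 from P2 to the adult 1.58 and the coronary Tek share at P2 37.9%. Angpt2 in P2 artery against other coronary cells was 0.31 under the limits of the study and 0.282 with the doublet score added. Without the cell with the most UMIs, adult Angpt2 in coronary against endocardial cells was 3.31.

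With endocardial cells taken by 3 UMIs and coronary cells with none, Tek at P2 was 0.425 in coronary against endocardial cells and 1.04 in artery against other coronary cells (reversed). The artery cells were not filtered in this setting. Tek from P2 to the adult was 1.55 in coronary cells and from E15 to P2 1.55 in endocardial cells, endocardial Tie1 from E12 to E15 was 1.2, and the Tek share was 45.6% in endocardial cells at E12 and 33.4% in coronary cells at P2. Without lymphatic-gated cells Angpt2 was 0.71 in coronary against endocardial cells at P2, 1.73 from P2 to the adult in coronary cells, and 1.2 in tip-gated against other coronary cells at P2 (reversed). Depth limits the ligands most, with 12 to 70 Angpt1 UMIs and 38 to 408 Angpt2 UMIs per library, and the adult endocardial gate, with 75 cells.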
